A study of Mus musculus with 6 samples.

Results

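The nuclear genes of oxidative phosphorylation (OXPHOS) were examined in the main olfactory epithelium of mice with a knockdown of miR-200b/a (KD) and of NC mice. The 90 genes were taken from the 31319 genes of the deposited table by symbol alone, as every gene named after an NADH dehydrogenase (Nduf), succinate dehydrogenase (Sdh), cytochrome c reductase (Uqcr), cytochrome c oxidase (Cox4 to Cox8) or ATP synthase (Atp5) component. None of the 90 differed between KD and NC past an adjusted p of 0.05, and their summed level did not separate the groups. It was 5510 ± 512 CPM (counts per 1000000 counts after TMM scaling of the libraries) for KD and 5510 ± 861 for NC (SD, n = 3 per group). Without that scaling, as a share of all counts, it was 0.522% ± 0.0549 for KD and 0.581% ± 0.0957 for NC. The accessory subunit Ndufb2 had the lowest fold change, and all 8 complex I assembly factors with an Ndufaf name were below 0. The summed levels of complexes III, IV and V overlapped between the groups.

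All mice were males of the C57BL/6 strain background at 5 months of age. The 3 KD libraries carry the label miR-200b/a KD and the 3 others the label NC. The sources used here do not give how the knockdown was made, in which cells, or what the NC mice carried or were given. The design text says that the libraries were made in triplicate and does not say that each came from another mouse, so a p-value reflects only how these libraries vary, and that variation may be technical. Poly(A) RNA of the whole epithelium was sequenced, and in such bulk tissue fewer cells of a type cannot be told apart from less RNA per cell.

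OXPHOS runs on the inner mitochondrial membrane. Complexes I and II pass electrons from NADH and succinate to ubiquinone, complex III passes them on to cytochrome c, complex IV hands them to oxygen, and complex V uses the resulting proton gradient to make ATP. All but complex II also hold subunits made from mitochondrial DNA, so nuclear and mitochondrial genes must be expressed together, and separate assembly factors build each complex without staying in it. Nuclear OXPHOS genes are known as targets of the transcription factors NRF1, GABP (an ETS factor), YY1 and the estrogen-related receptors, which PGC-1alpha (Ppargc1a) co-activates. In the olfactory epithelium, sensory neurons fuel odour detection partly by OXPHOS and partly by glycolysis.

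The libraries held 15704791 to 17618540 counts each, of which the 90 genes took 0.484% to 0.585% in KD and 0.489% to 0.68% in NC. The exact 95% interval of each such share was at most 0.00781 percentage points wide and covers counting error alone. The second KD library (KD-2) stood apart from the rest. Omp, the marker protein of mature olfactory neurons, had 149 counts there against 24302 and 33430 in the other KD libraries and 61926 to 69388 in NC. Over a list of 16 mature neuron markers, all 16 lay below 0, and the summed level ran from 180 to 5010 CPM in KD and from 8510 to 13700 in NC. The 10 sustentacular markers summed to 5160 to 10500 CPM in KD and 10500 to 12300 in NC, with 7 of 10 below 0, whereas all 7 horizontal basal cell markers lay above 0, with sums of 842 to 1420 against 229 to 633. The 6 plasma cell markers all lay above 0 (15800 to 28600 against 4560 to 24200 CPM), as did 4 of 6 markers of respiratory ciliated cells (646 to 728 against 486 to 620) and 4 of 7 of smooth muscle and pericytes (2770 to 4010 against 1120 to 2720). Of 4 brown adipocyte markers, the defining Ucp1 and Elovl3 were under 1 CPM in every library, while Cidea (26.3 ± 1.68 CPM in KD, 19.9 ± 2.06 in NC; SD, n = 3) was higher in all KD than in all NC libraries and Dio2 (64.6 ± 14.2 and 48.3 ± 15.1) overlapped. The neuron marker level did not overlap between the groups, so its part in the OXPHOS values cannot be told apart from the knockdown, and the part of the other cell types was not tested. Values with the neuron markers as a covariate, and values without KD-2 and NC-1 (the lowest KD and the highest NC library in neuron markers), are given below as descriptions. These 2 libraries were also the lowest and the highest for Ndufb2, Ndufaf4, Ndufaf5, Sdha and Ppargc1a, so a smaller fold without them was fixed by that choice. Over the 90 genes as a set they lay the other way. KD-2 was the highest KD library (median log2 level relative to the NC mean 0.20) and NC-1 the lowest NC library (-0.25). A shift of the set towards lower KD values without them was therefore also built into that choice.

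The promoters of the genes were looked up first, since such genes are known to share motifs of a few factors. RefSeq entries of 300 bases (250 before the start and 50 after it, GRCm38.p6) were matched for 76 of the 90 genes. Those with no entry included Atp5a1, Cox4i1, Cox4i2, Cox6a2, Cox6c, Ndufa2, Ndufaf6, Ndufb9, Ndufs1, Sdhc, Uqcrb, Uqcrc2 and Uqcrq. On either strand, the NRF1 motif GCATGCGC was found in 12 of the 76 promoters (15.8%), against 3.05% of the promoters of all 27025 genes. The ETS motif CCGGAAG was found in 18 (23.7%, against 9.93%), the YY1 motif AAGATGGCG in 9 (11.8%, against 1.64%) and the estrogen-related receptor motif TCAAGGTCA in 2 (2.6%, against 0.47%). At least 1 of the 4 motifs was present in 33 of the 76 (43.4%) and in 14.0% of all promoters. The 27025 genes were neither limited to the tested genes nor matched to the members in base composition. The shares therefore cannot show that the motifs are particular to OXPHOS genes. A match is a run of letters, and binding was not measured. The promoters of 4 genes are shown because these genes span the patterns below: Ndufb2 and Ndufaf4 had the smallest p among the members, Ndufaf5 is another assembly factor with all KD libraries below NC, and Cox6a1 is a highly expressed subunit that followed the spread between libraries. Capitals mark matches to any of the 4 motifs, and where matches on both strands overlap the capitals run on. Each sequence is written 5′ to 3′ on the strand of the gene. Ndufb2 lies at chr6:39592315-39592614 (plus strand), Ndufaf4 at chr4:24897833-24898132 (plus), Ndufaf5 at chr2:140170396-140170695 (plus) and Cox6a1 at chr5:115348909-115349208 (minus).
Ndufb2: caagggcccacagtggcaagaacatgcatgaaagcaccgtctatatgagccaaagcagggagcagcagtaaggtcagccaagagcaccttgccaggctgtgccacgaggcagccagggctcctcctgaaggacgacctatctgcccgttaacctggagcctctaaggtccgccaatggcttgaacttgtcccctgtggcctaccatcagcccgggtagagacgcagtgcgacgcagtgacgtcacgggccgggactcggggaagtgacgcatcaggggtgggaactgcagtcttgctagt
Ndufaf4: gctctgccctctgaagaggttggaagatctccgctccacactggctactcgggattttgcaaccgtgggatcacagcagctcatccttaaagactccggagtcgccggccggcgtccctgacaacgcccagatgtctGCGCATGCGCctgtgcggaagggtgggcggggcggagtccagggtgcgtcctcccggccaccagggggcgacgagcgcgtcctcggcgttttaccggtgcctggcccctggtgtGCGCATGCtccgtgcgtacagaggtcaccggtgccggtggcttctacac
Ndufaf5: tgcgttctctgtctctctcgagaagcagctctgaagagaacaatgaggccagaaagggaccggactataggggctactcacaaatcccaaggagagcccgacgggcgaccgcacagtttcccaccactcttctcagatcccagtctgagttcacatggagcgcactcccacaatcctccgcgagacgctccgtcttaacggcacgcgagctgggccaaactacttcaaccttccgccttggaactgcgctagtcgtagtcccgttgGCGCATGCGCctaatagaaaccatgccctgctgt
Cox6a1: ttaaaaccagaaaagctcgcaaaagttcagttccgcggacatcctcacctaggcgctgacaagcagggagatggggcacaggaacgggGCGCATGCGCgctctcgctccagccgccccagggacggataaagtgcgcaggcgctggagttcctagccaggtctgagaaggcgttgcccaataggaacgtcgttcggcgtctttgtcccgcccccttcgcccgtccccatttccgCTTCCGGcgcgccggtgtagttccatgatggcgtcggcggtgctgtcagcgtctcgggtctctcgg
The Ndufb2 window held none of the 4 motifs. The Ndufaf4 window held the NRF1 letters upstream of the start and again just past it, and the Ndufaf5 window held them just past the start. The Cox6a1 window held both the NRF1 motif and, close to the start, the ETS motif. By class, the NRF1 motif was in 2 of 7 assembly factor promoters, 3 of 27 of complex I accessory subunits, 0 of 5 of complex I core subunits, 1 of 3 of complex II, 2 of 5 of complex III, 1 of 13 of complex IV and 3 of 16 of complex V.

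The knocked-down microRNAs pair with targets through their seed, bases 2 to 8, and the seeds of miR-200a and miR-200b differ. Their mature RefSeq sequences are shown with the seed in capitals, from chr4:156054911-156054932 and chr4:156055685-156055706 (minus strand, GRCm38.p6).
mmu-miR-200a-3p: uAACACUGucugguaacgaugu
mmu-miR-200b-3p: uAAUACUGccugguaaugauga
A match to either seed was found in the longest annotated 3′ UTR of 4 of the 90 genes (4.4%), against 29.0% of 15786 tested genes. The UTRs of the members were short, with a median of 219 bases against 1175. Among UTRs of 67 to 960 bases, 2 of 72 members (2.8%) and 9.9% of all genes in that range held a match. Inside that range the median was still 219 bases for the members against 444 for all genes, so the shares are not matched for length. The 4 members were Ndufb2 (3 matches to miR-200b), Ndufc1 (1 to miR-200b), Ndufab1 and Atp5g2 (1 to miR-200a each). Their fitted log2 fold changes in KD were -0.94, -0.23, -0.28 and 0.32. The long annotated UTR of Ndufb2, 4012 bases, belongs to its longest isoform, and the counts do not say which isoform the reads came from.

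The comparison of KD with NC asked which transcripts differ in level when miR-200b/a is reduced. With edgeR's quasi-likelihood test, 0 of the 90 members passed an adjusted p of 0.05 (smallest adjusted p = 0.28), and neither did any of the 18444 tested genes (0.0%). DESeq2 called 0 of the 90 and 1.89% of all genes. At an unadjusted edgeR p under 0.05, 2 members were lower in KD, Ndufb2 and Ndufaf4, which is 2.2% of the members beside 9.25% of all genes. None was higher, beside 8.7% of all genes. All 3 KD libraries lay below all 3 NC libraries for 12 members (13.3%, against 18.6% of all genes) and above them for 2 members (2.2%, against 15.3%). The 12 were Ndufb2, Ndufb4, Ndufab1, Ndufaf5, Ndufaf6, Ndufaf7, Ndufv1, Ndufs1, Sdha, Sdhc, Uqcrc2 and Atp5s, and the 2 were Uqcrb and Atp5l. With total counts as the only scaling these numbers were 16 and 0.

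The members as a set lay near the NC level. Their median log2 fold change was 0.03, beside 0.01 over all tested genes, and 39 of the 90 were below 0 (43.3%, against 49.4%). The size of the log2 fold change was under 0.5 for 81 of the 90 members and for 56.6% of all genes, with a median size of 0.16 against 0.41. The range ran from -0.94 for Ndufb2 to 1.07 for Cox6a2, and the median standard error of a member was 0.23. The side on which the set lay depended on the libraries and the scaling. The number of members below 0 was 25 without the third NC library (NC-3), 60 without the first (NC-1), 76 when KD-2 and NC-1 were both left out, and 73 with mature neuron markers as a covariate. With total counts only it was 68, and that scaling also moved the median of all genes to -0.14 and that of the members to -0.12. Over the 15 fits, 22 members were below 0 in every one and 10 were above 0 in every one.

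**Figure D1:**
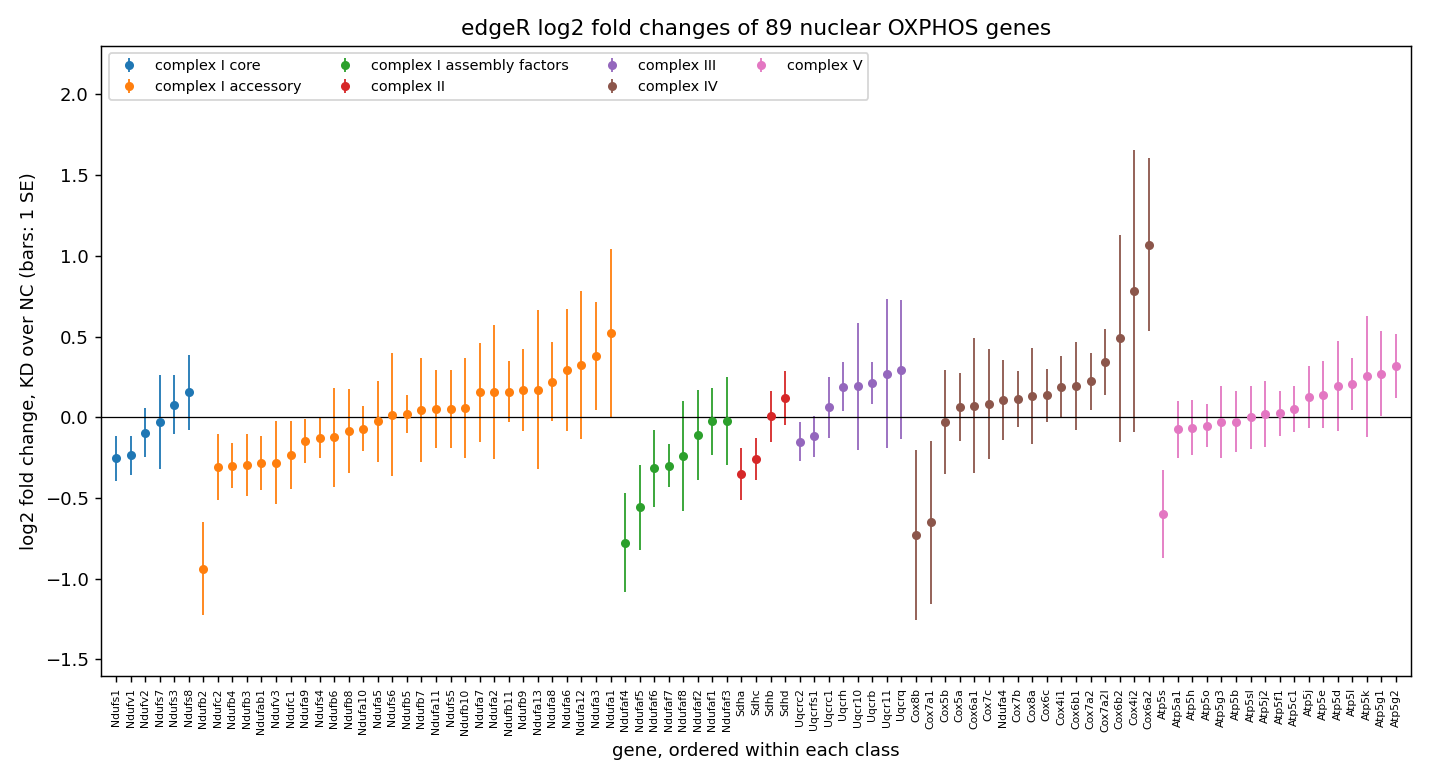
Fitted log2 fold change of KD over NC (vertical axis, bars 1 standard error) for 89 of the 90 genes, ordered within its class along the horizontal axis. All 8 complex I assembly factors with an Ndufaf name lie below 0, 14 of 17 complex IV genes lie above 0, and no gene passed an adjusted p of 0.05.

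Complex I is the entry point for electrons from NADH and the largest complex of the chain. Its 7 nuclear core subunits, which bind NADH, carry the flavin and iron-sulphur clusters or line the ubiquinone site, summed to 401, 461 and 431 CPM in the KD libraries and to 404, 433 and 517 in NC. The sums overlapped, and the median log2 fold change was -0.03. Ndufv1, the subunit that binds NADH, measured 61.0, 67.6 and 67.1 CPM in KD and 74.0, 74.7 and 81.8 in NC. Ndufs1, the largest iron-sulphur subunit, measured 63.3, 53.2 and 66.1 in KD and 75.4, 74.6 and 67.7 in NC. In both genes every KD library lay below every NC library, by a log2 fold change of -0.24 (SE 0.12) for Ndufv1 and -0.25 (SE 0.14) for Ndufs1. Neither passed in edgeR, with adjusted p of 0.32 and 0.33. Ndufs8 (40.3 ± 6.87 CPM in KD, 36.2 ± 9.82 in NC; SD, n = 3) overlapped between the groups.

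The 29 accessory subunits surround the core and are needed for assembly and stability. They summed to 731, 1020 and 913 CPM in KD and 727, 814 and 1130 in NC, with 13 below 0 and 16 above. Ndufb2, a small subunit of the membrane arm, stood out from them. It measured 10.5, 7.35 and 10.6 CPM in KD and 24.6, 16.0 and 13.8 in NC. KD-2 was the lowest library and NC-1 the highest, and the groups did not overlap. The log2 fold change was -0.94 (SE 0.29), with an edgeR unadjusted p of 0.016 and adjusted p of 0.28. The authors' deposited table gives the same direction, with a log2 fold change of -0.96. Leaving out KD-2 and NC-1 together gave -0.48, and the mature neuron covariate gave -0.61. Ndufb2 shares 7.9% of its exonic bases with 3 other annotated genes, among them Braf on the other strand.

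Ndufb4, another membrane-arm subunit, measured 17.6, 18.1 and 19.0 CPM in KD and 20.4, 23.3 and 23.6 in NC. Ndufab1, the mitochondrial acyl carrier protein, measured 24.3, 19.5 and 22.9 in KD and 31.5, 24.6 and 24.9 in NC. The groups did not overlap in either gene, with log2 fold changes of -0.30 (SE 0.14) and -0.28 (SE 0.17), and neither passed (edgeR adjusted p of 0.29 and 0.36). Ndufb5 was the steadiest, between 23.6 and 24.7 CPM in all 6 libraries. Ndufa1, by contrast, ran from 14.1 to 40.9 CPM within KD and from 9.44 to 28.9 within NC. Ndufb11 had the highest level per length among the accessory subunits, 56.3 CPM per kb, at 53.9 ± 5.78 CPM in KD against 48.3 ± 10.5 in NC (SD, n = 3).

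The 8 assembly factors Ndufaf1 to Ndufaf8, proteins that build complex I and are not part of the finished enzyme, summed to 101, 95.5 and 106 CPM in KD and 143, 123 and 126 in NC. The sums did not overlap, at 101 ± 5.32 in KD and 131 ± 10.8 in NC (SD, n = 3). All 8 were below 0 on the log2 fold change scale. Their median was -0.27, beside 0.05 for the other 82 members and 0.01 for all tested genes. None of the 8 passed the adjusted threshold, and 1 had an unadjusted p under 0.05. The median of the class stayed between -0.42 and -0.20 in all 14 alternatives, while the number of genes below 0 ranged from 5 to 8. The distance to the other 82 members was smallest in 2 of them. With the neuron covariate the medians were -0.23 and -0.13, and without KD-2 and NC-1 they were -0.27 and -0.13. In those fits the accessory subunits were at -0.19 and -0.22. For the other 82 members KD-2 was the highest KD library (median log2 level relative to the NC mean 0.27) and NC-1 the lowest NC library (-0.26). Leaving both out was therefore bound to lower their median, and the covariate was most extreme in the same 2 libraries.

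Ndufaf4, which takes part in an early assembly intermediate, measured 31.8, 19.6 and 25.5 CPM in KD and 62.0, 38.5 and 31.4 in NC. KD-1 lay just above NC-3, so the groups overlapped. The log2 fold change was -0.78 (SE 0.31; edgeR unadjusted p = 0.044, adjusted p = 0.28). It was -0.26 when KD-2 and NC-1 were left out, -0.44 without NC-1 alone, and -0.43 with the neuron covariate. Ndufaf5, which modifies the core subunit Ndufs7, measured 7.88, 4.9 and 7.44 in KD and 10.9, 8.63 and 10.3 in NC (log2 fold change -0.56, SE 0.26). Leaving out KD-2 and NC-1 gave -0.28, and the covariate -0.23. Ndufaf7, a methyltransferase that modifies a core subunit, measured 22.8, 20.1 and 24.1 in KD and 28.9, 27.1 and 26.5 in NC (log2 fold change -0.30, SE 0.14). In Ndufaf5 and Ndufaf7 no KD library reached the lowest NC library, and neither gene passed (edgeR adjusted p of 0.30 and 0.29). Ndufaf6 was also without overlap, with 4.26 ± 0.387 CPM for KD and 5.31 ± 0.541 for NC (SD, n = 3). Ndufaf1, Ndufaf2, Ndufaf3 and Ndufaf8 overlapped, with log2 fold changes of -0.03, -0.11, -0.02 and -0.24. Ndufaf8 had the highest level per length of the 8, 10.6 CPM per kb, and its value was 0.11 without NC-3. Ndufaf2 shares 65.6% of its exonic bases with a gene on the other strand.

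The summed assembly factor level was lowest in KD-2, with the fewest neuron counts, and highest in NC-1, with the highest neuron sum. Ndufaf4 weighed heavily in these sums, with 62.0 of the 143 CPM of NC-1 and 19.6 of the 95.5 of KD-2. The class as a whole did not keep that order. Its median log2 level relative to the NC mean was lower for KD-1 (-0.29) than for KD-2 (-0.21), and NC-1 (0.01) hardly differed from NC-3 (0.0). Of the 8 genes, 4 were lowest in KD-2 and 3 in KD-1, while 4 were highest in NC-1 and 3 in NC-3. The other 82 members summed to 5890 CPM in KD-2, the second highest of the 6 libraries, but this rank depended on the scaling: as a share of all counts, the 90 members took 0.497% in KD-2, the third lowest share. In TMM-scaled CPM, KD-2 was the lowest library for 12 of the 90 members and the highest for 27.

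**Figure D2:**
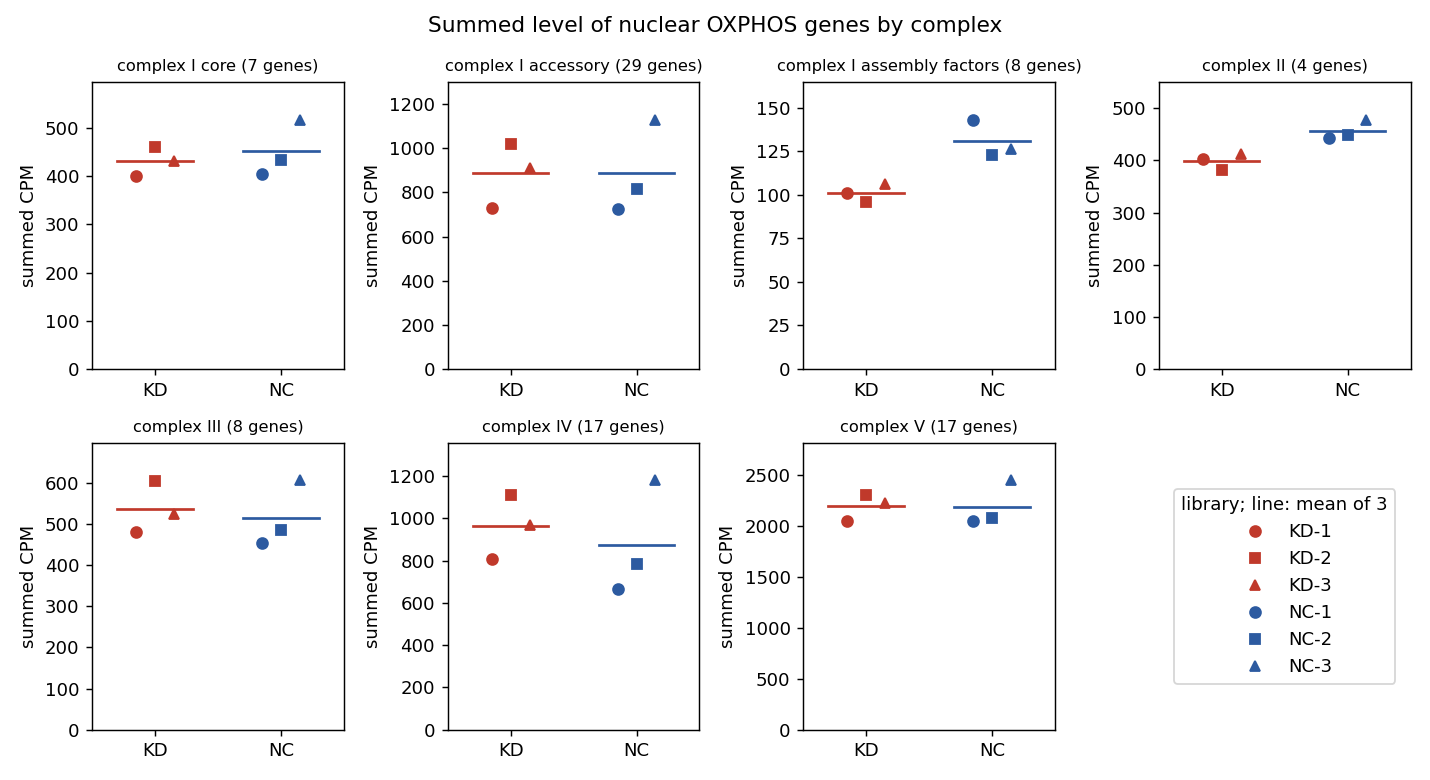
Summed CPM of each class of nuclear OXPHOS genes (vertical axes from 0) in the 3 KD and 3 NC libraries, with lines at the mean of each group. The groups are apart for the complex I assembly factors (95.5 to 106 against 123 to 143 CPM) and complex II (382 to 412 against 442 to 478), and overlap in the other 5 classes.

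Complex II, succinate dehydrogenase, is also an enzyme of the tricarboxylic acid cycle and the only complex with no mitochondrially encoded subunit. Its 4 genes summed to 402, 382 and 412 CPM in KD and to 442, 448 and 478 in NC, without overlap (399 ± 15.2 and 456 ± 19.4; SD, n = 3). The difference lay in 2 of the 4 genes. Sdha, the flavoprotein that oxidises succinate, measured 189, 149 and 186 CPM in KD and 238, 215 and 217 in NC. Sdhc, a membrane anchor, measured 74.6, 76.7 and 82.0 in KD and 87.3, 91.0 and 101 in NC. Every KD library was below every NC library in both, with log2 fold changes of -0.35 (SE 0.16) and -0.26 (SE 0.13) and edgeR adjusted p of 0.29 and 0.31. Leaving out KD-2 and NC-1, the value for Sdha was -0.18, and with the neuron covariate it was -0.17. The iron-sulphur subunit Sdhb (72.8 ± 4.11 CPM in KD, 72.6 ± 11.1 in NC) and the other anchor Sdhd (73.2 ± 6.52 and 67.3 ± 10.8; SD, n = 3) overlapped. Sdhd was the highest of the 4 per length, at 57.0 CPM per kb.

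Complex III transfers electrons from ubiquinol to cytochrome c. Its 8 genes summed to 480, 604 and 525 CPM in KD and 453, 485 and 606 in NC, with 6 of 8 above 0 and a median log2 fold change of 0.19. That median was -0.03 without NC-1, -0.11 when KD-2 was left out as well, and -0.14 with the neuron covariate. Uqcrb, a small subunit next to the ubiquinone site, measured 25.2, 25.6 and 23.1 CPM in KD and 21.5, 19.9 and 22.4 in NC. It is 1 of the 2 members with all KD libraries above all NC libraries (log2 fold change 0.21, SE 0.13; edgeR adjusted p = 0.37). Uqcrc2, a core protein, lay the other way, at 94.2, 88.8 and 94.5 in KD and 107, 103 and 98.2 in NC (-0.15, SE 0.12; edgeR adjusted p = 0.46). Uqcrh, the hinge protein, had the highest level per length, 61.0 CPM per kb, and overlapped (80.4 ± 4.77 CPM in KD, 70.4 ± 10.3 in NC; SD, n = 3).

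Complex IV, cytochrome c oxidase, reduces oxygen. Its 17 genes, counted with Ndufa4 (named for complex I and since placed in complex IV) and Cox7a2l (a factor that joins complexes III and IV), summed to 807, 1110 and 971 CPM in KD and 665, 784 and 1180 in NC. The groups overlapped, at 962 ± 151 and 877 ± 271 (SD, n = 3), and the NC libraries alone spanned the KD range. The median log2 fold change was 0.13, with 14 of 17 genes above 0. Between 2 and 11 of the 17 were below 0 in the alternatives, so this direction was not stable. Cox7a2l measured 73.5, 97.4 and 76.6 CPM in KD and 57.3, 56.9 and 80.7 in NC, with overlapping groups (log2 fold change 0.34, SE 0.20; edgeR adjusted p = 0.36). Cox8a was the highest of all members per length, at 245 CPM per kb, and measured 159 ± 34.4 CPM in KD against 145 ± 49.9 in NC (SD, n = 3). Cox7b lay between 46.1 and 65.0 CPM in all libraries.

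Several complex IV subunits come in a common form and a second form known from muscle, lung or testis. The common form made up most counts of each pair in every library. Cox4i2, the lung form of subunit 4, whose expression depends on oxygen, had 111, 237 and 72 counts in KD and 22, 79 and 199 in NC, which is 6.38%, 13.6% and 4.03% of the Cox4i counts in KD and 1.6%, 5.12% and 9.21% in NC. Exact 95% intervals ran from 1.0% to 2.41% in NC-1 and from 12.0% to 15.3% in KD-2, so libraries differed beyond counting error while the groups overlapped (log2 fold change 0.78, SE 0.87). Cox4i1 measured 102 ± 12.0 CPM in KD against 89.4 ± 18.3 in NC (SD, n = 3). The muscle form Cox6a2 stayed at or under 0.798% of the Cox6a counts, with 5 to 18 counts per library, and had the largest positive log2 fold change of the members, 1.07 (SE 0.54; edgeR adjusted p = 0.31). It measured 0.824 ± 0.362 CPM in KD against 0.384 ± 0.155 in NC (SD, n = 3). The muscle forms Cox7a1 (0.81% to 3.25% of the Cox7a counts in KD, 2.48% to 4.46% in NC) and Cox8b (1.27% to 2.27% of the Cox8 counts in KD, 2.08% to 3.59% in NC) had log2 fold changes of -0.65 (SE 0.50) and -0.73 (SE 0.53), with overlapping levels. Cox6b2, the testis form, took 1.53% of the Cox6b counts in NC-1 and 4.71% to 6.37% in the other 5 libraries. Of the common forms, Cox6a1 measured 114 ± 40.2 CPM in KD against 109 ± 50.5 in NC, Cox6b1 62.1 ± 11.7 and 54.3 ± 17.6, and Cox7a2 34.4 ± 2.75 and 29.5 ± 5.70 (SD, n = 3). A list of 13 skeletal muscle markers summed to 9.8 to 11.8 CPM in KD and 9.92 to 29.1 in NC, with Myh4 and Tcap under 1 CPM in every library and all 54 Myh1 and 44 Myh2 counts in NC-1. The part of muscle tissue in the muscle forms was not tested.

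**Figure D3:**
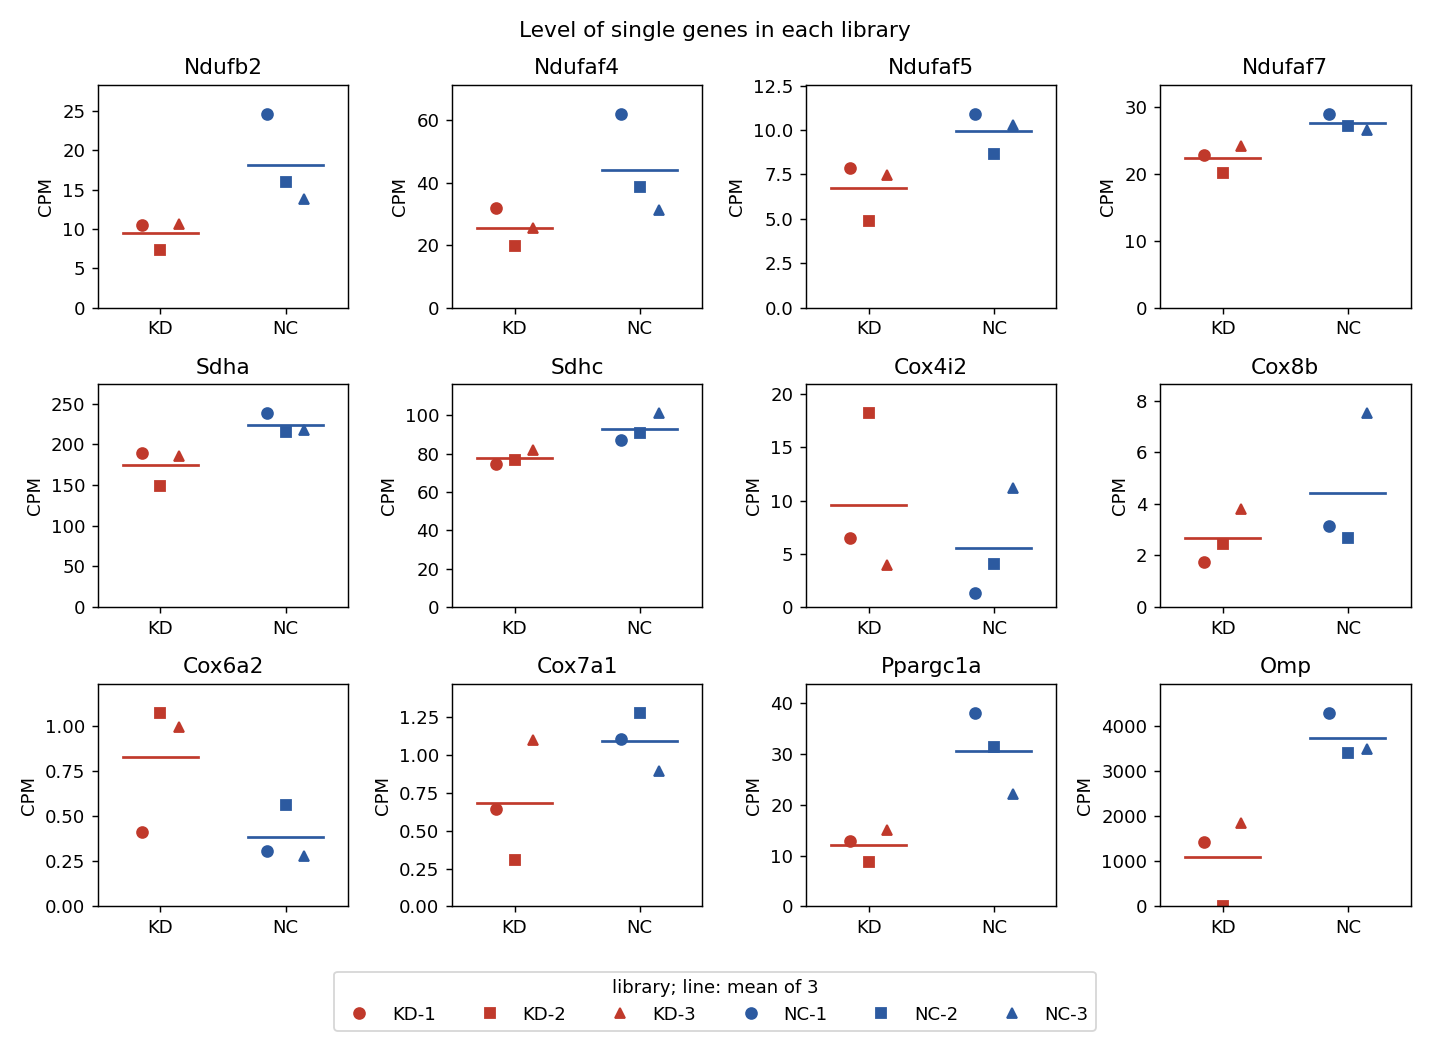
CPM of 12 single genes (vertical axes from 0) in each KD and NC library, with lines at the mean of each group. Ndufb2, Ndufaf5, Ndufaf7, Sdha, Sdhc, Ppargc1a and Omp have all KD libraries below all NC libraries, and Cox4i2, Cox6a2, Cox7a1, Cox8b and Ndufaf4 overlap.

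Complex V, the ATP synthase, was the most expressed, with 17 genes that summed to 2050, 2310 and 2230 CPM in KD and 2050, 2080 and 2450 in NC (2190 ± 136 and 2190 ± 227; SD, n = 3). The catalytic-head subunits Atp5a1 (529, 535 and 544 CPM in KD, 549, 543 and 603 in NC) and Atp5b (583, 664 and 646 in KD, 642, 597 and 692 in NC) had the most counts. Their groups overlapped, with log2 fold changes of -0.07 (SE 0.18) and -0.03 (SE 0.19). Per length they stood at 176 and 150 CPM per kb. Atp5s, known as coupling factor s, was the exception, at 13.4, 7.97 and 13.4 CPM in KD and 19.4, 19.4 and 14.0 in NC. All KD libraries lay below NC, KD-2 lowest, with a log2 fold change of -0.60 (SE 0.27; edgeR adjusted p = 0.29). Atp5l, the membrane subunit g, lay the other way, at 15.1, 16.1 and 15.8 in KD and 12.0, 14.5 and 14.1 in NC (0.21, SE 0.16; edgeR adjusted p = 0.45). Atp5g2, which encodes a c-ring subunit, measured 65.9, 83.3 and 80.8 in KD and 53.8, 53.8 and 77.1 in NC, with overlap (0.32, SE 0.20; edgeR adjusted p = 0.37). Atp5sl, whose product is known as an assembly factor of complex I in spite of the gene's name, measured 38.9 ± 8.10 CPM in KD against 38.9 ± 5.44 in NC (SD, n = 3). It was counted by its name with complex V and not with the Ndufaf genes, and its log2 fold change was -0.001.

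The median log2 range within the NC group was 0.56 for the members and 0.54 for all tested genes. It exceeded the size of the KD over NC log2 fold change for 76 of the 90 members (84.4%) and for 63.9% of all tested genes, and a range of 3 libraries can exceed a difference of means with no trait of the genes. NC-3 was the highest of the 6 libraries for 45 of the 90 genes, and NC-1 was the lowest for 46. The median log2 ratio of NC-3 over NC-1 was 0.54 for the members and -0.01 for all tested genes, and 75 of the 90 members had a positive ratio. It was 0.89 for complex IV, 0.73 for the complex I accessory subunits, 0.43 for complex V, 0.42 for complex III, 0.36 for the complex I core, 0.32 for complex II and -0.05 for the assembly factors. The ratio was highest for Cox4i2 (2.65), Cox6b2 (1.99), Ndufa1 (1.56) and Ndufa13 (1.54), and lowest for Ndufaf4 (-0.97) and Ndufb2 (-0.81). These genes were named after their values were seen. Across the 90 genes the ratio had a Spearman correlation of -0.51 with exonic length and 0.48 with GC content, beside -0.28 and 0.34 over 18430 tested genes with a length. The KD over NC log2 fold change had correlations of -0.34 with length and 0.34 with GC content across the members, beside -0.10 and 0.16. All of these genes share the same libraries and are not independent. The median exonic length of the members was 1700 bases, against 3860 for all tested genes. The part of RNA quality or library preparation in this spread was not tested.

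**Figure D4:**
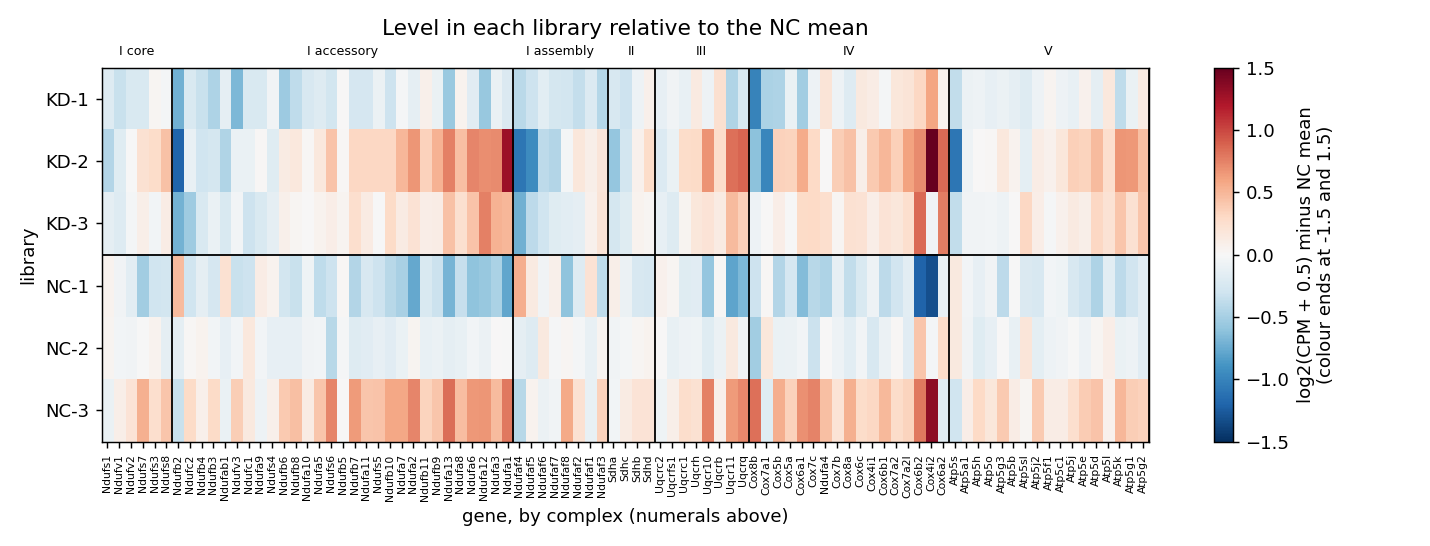
Level of 89 of the 90 genes (columns, by class) in each library (rows) as log2(CPM + 0.5) minus the NC mean. KD-2 and NC-3 are high over most subunits and NC-1 is low, while Ndufb2, Ndufaf4, Ndufaf5 and Atp5s are lowest in KD-2.

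**Figure D5:**
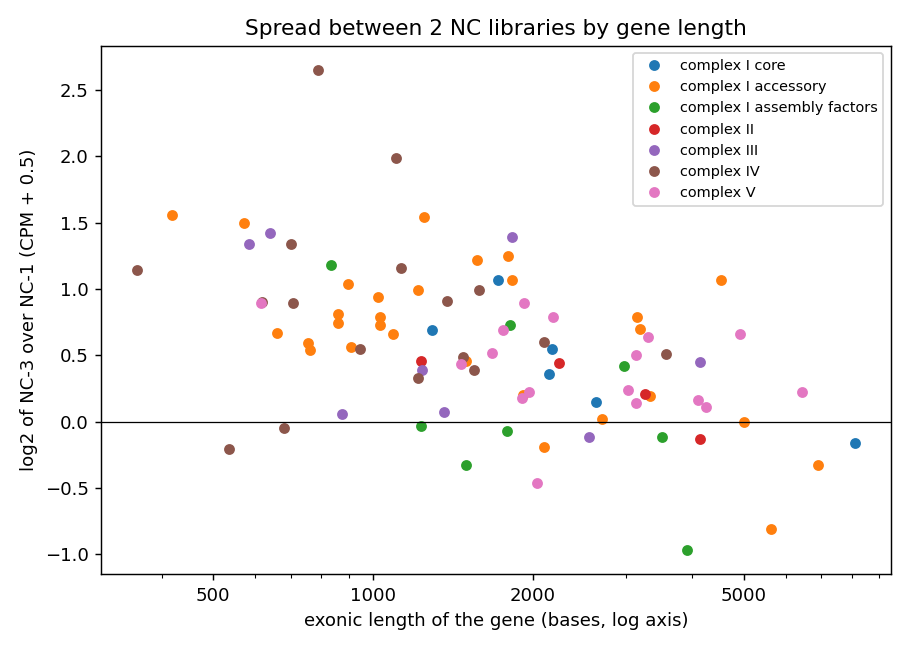
Log2 ratio of NC-3 over NC-1 (vertical axis) against the exonic length of 89 of the 90 genes (horizontal axis, log scale). Shorter genes tend to lie higher, with exceptions such as Cox7a1 (535 bases, -0.21) and Cox6a2 (680 bases, -0.05). The Spearman correlation over all 90 is -0.51, and Ndufaf4 (-0.97) and Ndufb2 (-0.81) are the lowest points.

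The partner genes of the pathway were read from the same fit. Of the 13 subunits encoded by mitochondrial DNA, 12 were tested, with mt-Atp8 under 1 CPM everywhere, and 10 of the 12 were below 0 (median -0.21 on the log2 scale). They summed to 21800, 23300 and 25000 CPM in KD and 28100, 26300 and 25100 in NC, so the groups were apart by a narrow margin, and 0 of 12 had an unadjusted p under 0.05. Across all libraries mt-Co1 ran from 9610 to 11600 CPM, and mt-Co2 only from 51.6 to 66.6. Also low were mt-Co3 (27.4 to 50.8), mt-Atp6 (24.3 to 35.6), mt-Nd3 (2.2 to 6.6) and mt-Nd4l (0.729 to 2.15). How multiply mapped reads were treated is not given. Whether these low values, and that of mt-Atp8, reflect expression was not tested. The low genes enter the count below 0, the median and the sums. mt-Nd2, a core subunit of complex I, measured 1420 ± 347 CPM in KD against 1950 ± 566 in NC (SD, n = 3), and mt-Nd5, a proton-pumping subunit, 2040 ± 229 and 2530 ± 576. The groups overlapped in both genes. All KD libraries lay below all NC libraries for 2 of the 12, mt-Nd1 and mt-Cytb, beside 18.6% of all genes, and above them for 0. Cytochrome c (Cycs) and cytochrome c1 (Cyc1) had log2 fold changes of -0.12 (SE 0.13) and -0.03 (SE 0.21). Among 36 tested assembly factors under other names, 20 were below 0 and 16 above, with 4 lower and 1 higher at an unadjusted edgeR p under 0.05, beside 9.25% and 8.7% of all genes. Of those known to act on complex I, Acad9 (-0.51), Tmem126b (-0.45), Timmdc1 (-0.36) and Nubpl (-0.21) had every KD library below every NC library. That held for 18.6% of all genes. Ecsit (-0.07) and Foxred1 (0.005) overlapped, and 0 of the 36 passed the adjusted threshold in edgeR. Lower values were therefore not limited to factors with an Ndufaf name. Sdhaf3, an assembly factor of complex II, measured 5.66, 2.76 and 6.17 CPM in KD and 13.1, 10.7 and 8.58 in NC, without overlap (-1.14, SE 0.37; edgeR adjusted p = 0.28). Coa7, an assembly factor of complex IV, lay the other way, at 9.53 ± 0.647 CPM in KD against 6.25 ± 0.319 in NC (SD, n = 3; 0.61, SE 0.20; edgeR adjusted p = 0.28).

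The tricarboxylic acid cycle supplies the NADH and succinate that complexes I and II oxidise. Of 16 listed genes of the cycle and of pyruvate dehydrogenase, 14 were below 0, and the median was -0.09 on the log2 scale. The list does not include complex II, and Pdha1, Pdhb and Dlat in it belong to pyruvate dehydrogenase. Pdhb, a subunit of pyruvate dehydrogenase, measured 71.9, 76.1 and 73.3 CPM in KD and 90.4, 92.3 and 88.1 in NC, with libraries of each group close together and no overlap (-0.29, SE 0.12; edgeR adjusted p = 0.28). Fh1, fumarase, measured 34.2, 31.9 and 33.2 in KD and 42.8, 38.8 and 38.1 in NC (-0.27, SE 0.12; edgeR adjusted p = 0.28). Of 17 glycolytic genes, 7 were below 0 and 10 above. Ldhb, a lactate dehydrogenase subunit, measured 156 ± 45.5 CPM in KD against 301 ± 51.9 in NC, and Pfkm, a phosphofructokinase, 32.5 ± 15.8 and 72.0 ± 4.66 (SD, n = 3), with log2 fold changes of -0.95 (SE 0.27) and -1.14 (SE 0.36). Both had an edgeR adjusted p of 0.28. Genes of the same enzymes lay the other way, with overlapping groups: Ldha measured 513 ± 252 CPM in KD against 214 ± 143 in NC, and Pfkp 122 ± 24.3 against 79.9 ± 21.3 (SD, n = 3), with log2 fold changes of 1.26 (SE 0.59) and 0.61 (SE 0.25). Of 14 mitochondrial import genes, 8 were below 0 and 0 had an unadjusted p under 0.05. Tomm5 and Timm17a, subunits of the outer and inner membrane translocases, had the smallest p, with log2 fold changes of 0.37 (SE 0.20) and -0.28 (SE 0.16).

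Of 14 regulators of mitochondrial biogenesis, 8 were below 0 and 6 above. Ppargc1a, which encodes PGC-1alpha, measured 12.8, 8.66 and 15.1 CPM in KD and 38.1, 31.4 and 22.2 in NC. KD-2 was the lowest and NC-1 the highest, and the groups did not overlap. The log2 fold change was -1.32 (SE 0.29; edgeR unadjusted p = 0.0036, adjusted p = 0.28). DESeq2 gave an adjusted p of 0.02 and limma-voom 0.23. Its value was -0.91 when KD-2 and NC-1 were left out and -0.92 with the neuron covariate. Pprc1, a related co-activator, lay the other way, at 41.3, 52.2 and 37.7 in KD and 29.7, 26.8 and 37.3 in NC (0.48, SE 0.19; edgeR adjusted p = 0.28). Of the factors whose motifs were counted above, Nrf1, Gabpa, Esrra and Yy1 overlapped between the groups. Nrf1 had a log2 fold change of -0.32 (SE 0.20), Gabpa of -0.06 (SE 0.24), Esrra, an estrogen-related receptor, of 0.30 (SE 0.30) and Yy1 of -0.07 (SE 0.16). Tfam, which packages and transcribes mitochondrial DNA, measured 27.1 ± 4.25 CPM in KD against 27.1 ± 0.796 in NC (SD, n = 3).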

How the data were processed

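The authors deposited a table with a whole-number count per gene and library, per the file headers, next to 3 columns of the authors' own results: a mean of size-factor-scaled counts (a signal value), the log2 fold change and an unadjusted p-value. The tools in the submitters' processing notes are HTSeq 0.6.0, HISAT2 2.1.0, Bowtie2 2.2.3, TopHat2, DESeq and DESeq2, on GRCm38, without a stated role. The sources used here give neither annotation release nor strand setting nor how multiply mapped reads were treated, so reads of overlapping genes (31 members share exonic bases with another annotated gene) and of near-identical pseudogene copies cannot be told apart. The count columns of the NC group are headed as controls and were matched to the NC samples by their numbers.

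The deposited counts were tested with edgeR 4.0.16 (R 4.3.3; TMM, its default filter on low counts, quasi-likelihood test, two-sided) over all 6 libraries, with Benjamini-Hochberg adjustment over 18444 genes and a threshold of 0.05. CPM are TMM-normalised, and the standard error of a log2 fold change was derived from its F statistic. All 90 members passed the filter. The biological coefficient of variation was 40.9%. DESeq2 1.42.0 and limma 3.58.1 (voom) were alternatives, beside other scalings, no filter, a replicate block, leaving out libraries and a mature neuron covariate. The scripts were tested on simulated data. Positions and exonic lengths came from GENCODE M21, and all 90 gene IDs were found.

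The members and gene lists were chosen with earlier results of these data known. Named genes are the 3 members of each class with the smallest p, the member with the highest level per length, the Cox isoform families, up to 2 genes of each other list with the smallest p, and Ppargc1a, Nrf1, Gabpa, Esrra, Tfam, Cycs, Cyc1 and Omp. 1 core subunit is not reported singly here and is left out of plots of single genes. Others were named after their values were seen.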

Additional observations from a re-analysis of the deposited data

How the results depend on the processing

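No member passed an adjusted p of 0.05 in any of the 14 alternatives. Over all genes, DESeq2 called 347 and leaving out both KD-2 and NC-1 called 3, where edgeR with all libraries called 0 (1706 lower and 1604 higher at an unadjusted p under 0.05) and limma-voom 0. Leaving out 1 library at a time moved the median of the members between -0.09 and 0.23. Of 41 named genes, 15 changed sign in at least 1 alternative, all without passing, and the cause was not tested. With DESeq2's size factors, and likewise with DESeq2, Tfam was at -0.02. With total counts only, Ndufs8 was at -0.01, Ndufb11 -0.00, Sdhd -0.04, Cox8a -0.03, Cox6a1 -0.10, Cox7b -0.05 and Tfam -0.14. Without both KD-2 and NC-1, Ndufs8 was at -0.10, Ndufb11 -0.02, Sdhd -0.05, Cox8a -0.17, Cox4i2 -0.52, Cox6a1 -0.41, Cox6b1 -0.11, Cox7b -0.07, Gabpa 0.23 and Esrra -0.09. With the mature neuron covariate, Ndufs8 was at -0.11, Ndufb11 -0.02, Sdhd -0.03, Cox8a -0.14, Cox4i2 -0.59, Cox6a1 -0.34, Cox6b1 -0.08, Cox7a1 0.03, Cox7b -0.13, Gabpa 0.12, Esrra -0.08 and Omp 0.37. Omp is itself 1 of the 16 markers averaged into that covariate, so its loss of fold change there was built in. Leaving out 1 library at a time, values ran from -0.12 to 0.13 for Tfam, -0.17 to 0.14 for Cyc1, -0.06 to 1.81 for Cox4i2, -0.20 to 0.49 for Cox6a1, -0.01 to 0.22 for Cox7b, -0.24 to 0.13 for Gabpa, -0.04 to 0.45 for Cox8a and -0.50 to 0.11 for Ndufaf8.

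Same-numbered KD and NC libraries had correlations of 0.32, 0.11 and -0.26 between their deviations from the group mean. Libraries of different numbers ran from -0.38 (KD-2 with NC-1) to 0.37 (KD-2 with NC-3). Deviations within a group of 3 are tied to each other, so these values cannot show whether the numbers pair the libraries. With the replicate number as a block, 0 members and 0 of all genes passed, the median of the members was 0.06, and Tfam was at -0.01. No call changed under the block. With 3 libraries a group and a standard error of 0.12 to 0.87 per member, small differences were not detectable.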
